A study of Homo sapiens with 4 samples.

Results

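The genes of the autophagy machinery were followed in BEAS-2B, an immortalised cell line from human bronchial epithelium. Members were taken by gene symbol and comprise the ATG genes, the LC3 and GABARAP family, WIPI1, WIPI2 and a set of named regulators and cargo receptors, in all 41 of the 25411 genes in the deposited tables. Total RNA was sequenced in 2 libraries from cells given cadmium chloride (5 µM CdCl2 for 72 h) and 2 libraries from control cells grown for 72 h. The labels place both cadmium libraries under experiment 2 and both control libraries under experiment 1, so experiment and treatment cannot be told apart. Nothing in the labels makes the replicates separate cultures, and the p-values cover only the variation between these 4 libraries, which may be technical. In RNA from whole cultures, a change in the share of cells that express a gene and a change per cell cannot be told apart.

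Autophagy encloses cytoplasm in a double membrane, the autophagosome, which then fuses with the lysosome so that its content is degraded. A kinase complex around ULK1 starts the process, a lipid kinase complex around BECN1 marks the membrane, and lipid transfer proteins enlarge it. A conjugation system then attaches LC3 and GABARAP proteins to the membrane, where cargo receptors such as SQSTM1 bind them. Much of the regulation acts on the proteins themselves, and mRNA levels do not measure the rate of degradation.

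Cadmium replicates 1 and 2 had 29937242 and 15537382 reads in genes, and control replicates 1 and 2 had 26529403 and 8609243. Of 10 epithelial line markers 3 (KRT5, KRT19 and TP63) stayed under 10 reads in every library. The keratin gene KRT8 had 17978 and 9743 reads with cadmium and 14054 and 5463 reads in controls and did not pass. KRT18, VIM and CDH2 did not pass either, at means of 266, 2496 and 196 CPM with cadmium and 235, 2551 and 193 CPM in controls. CDH1 had 28 and 15 reads with cadmium and 11 and 1 reads in controls (log2 fold change 1.45, edgeR adjusted p = 0.0944). KRT7, another keratin, fell (246 and 288 CPM with cadmium and 523 and 558 CPM in controls, log2 fold change -1.02, edgeR adjusted p = 0.00234), and EPCAM, an adhesion gene of epithelia, rose (5.94 and 5.06 CPM with cadmium and 2.04 and 2.38 CPM in controls, 1.36, adjusted p = 0.0131). The part of these changes in the results on autophagy genes was not tested. Of 19 marker genes of other cell types 10 stayed under 10 reads, among them CD3E, PECAM1, COL3A1 and DCN with 0 in all 4 libraries. Of the 7 tested 2 rose (28.6%, against 8.85% of all tested genes). These were CD68 (0.59, edgeR adjusted p = 0.00857) and TIE1 (1.68, adjusted p = 0.0160). TIE1 had 101 and 42 reads with cadmium and 27 and 6 reads in controls. PDGFRB did not pass, at means of 196 CPM with cadmium and 173 CPM in controls. The 7 tested marker genes of other cell types, mostly COL1A1, summed to 3550 and 3366 CPM with cadmium and 4607 and 3789 CPM in controls. Nuclear-retained RNAs are a sign of RNA quality. The 4 tested summed to 1417 and 1455 CPM with cadmium and 865 and 1060 CPM in controls. Of these, MALAT1 and NEAT1 rose (log2 fold change 0.87 and 0.59, edgeR adjusted p = 0.00188 and 0.0228). TUG1 (-0.040, adjusted p = 0.799) and KCNQ1OT1 (0.88, adjusted p = 0.238) did not pass. The part of these RNAs in the results below was not tested. CPM are read counts relative to library size, scaled by TMM, and RPKM, as deposited, are also divided by transcript length.

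The comparison asked which autophagy transcripts differed after 72 h with cadmium. Of the 41 members 5 rose (ATG16L2, GABARAPL1, RB1CC1, NBR1 and ULK1), by 1.30-fold to 1.75-fold. Of the others 0 fell, 33 did not pass and 3 had too few reads to be tested. The test was edgeR's quasi-likelihood test at a Benjamini-Hochberg adjusted p under 0.05 over 13663 genes. With all 4 libraries kept, alternatives called 0 to 2 members lower, 1 (ATG4D) with limma-voom and 2 (ATG4B and ATG4D) with no filter. The 5 genes are 13.2% of the 38 tested members, against 8.85% of all tested genes called higher and 7.66% called lower. In all, 1209 genes were higher and 1046 lower, and 1445 and 682 with library size alone in place of TMM. Unadjusted p was under 0.05 for 13 members (34.2%), against 34.0% of all tested genes.

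The median log2 fold change of the 38 members, cadmium over control, was 0.078 (quartiles -0.084 and 0.26), against 0.0019 over all tested genes (quartiles -0.20 and 0.27). It was positive for 65.8% of the members and 50.2% of all tested genes. Both cadmium libraries lay above both controls for 17 members (44.7%, against 31.3% of all tested genes) and below both for 9 (23.7%, against 30.8%).

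Leaving out a cadmium library removed calls among the members and among all genes. Without cadmium replicate 1 GABARAPL1 was the only member to pass (2.63% of the tested members, against 2.71% of all tested genes called higher). Without cadmium replicate 2 GABARAPL1 and ATG16L2 were the only ones (5.26%, against 4.18%). The log2 fold changes of the 5 genes then lay between 0.36 and 0.95. Without control replicate 1 the median log2 fold change of the members was 0.081, against 0.010 over all tested genes. Leaving out control replicate 2 instead gave 0.074, against 0.0071. At an adjusted p under 0.01 the test called 0 members. The authors' deposited table, at an adjusted p under 0.05, calls the same 5 genes higher and 0 members lower, against 5.42% and 5.5% of its 18130 genes with RPKM above 0.

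**Figure D1:**
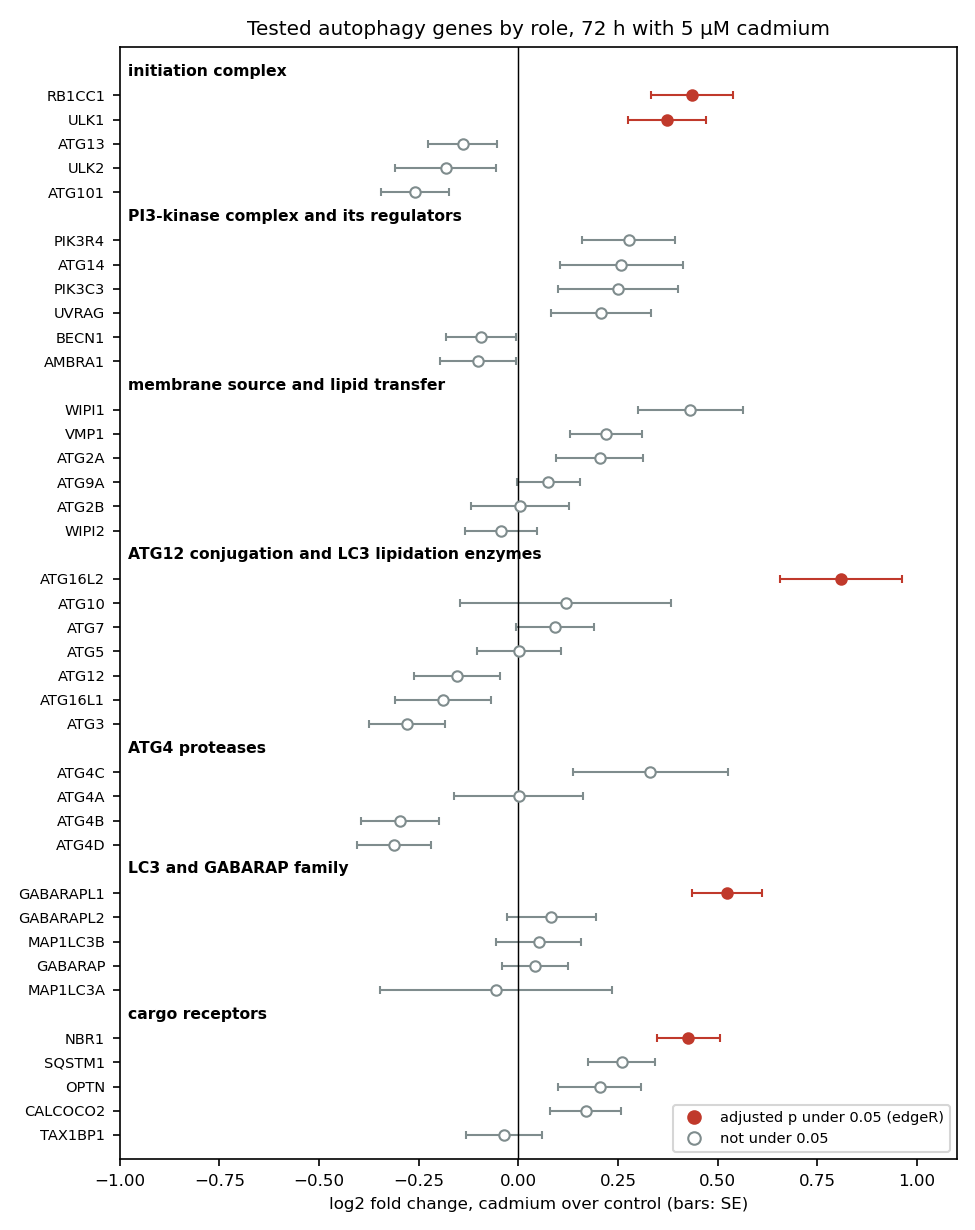
Log2 fold change of each of the 38 tested autophagy genes, cadmium over control, by role, with the SE as bars. The 5 genes with an adjusted p under 0.05 (filled points) all lie right of 0, from ULK1 at 0.37 to ATG16L2 at 0.81.

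Promoter sequences of the genes that rose are shown because these genes moved in the same direction. RefSeq windows (GRCh38.p14) of 300 bases, 250 before to 50 after a start, were found for 37 of the 41 members, 46 windows in all, and for 4 of the 5 genes that rose. Of the 2 windows of NBR1 the one that held a motif is shown. Both strands were searched for CACGTG (E-box), TGACNNNGC (antioxidant response element), TGCGCNC and TGCACNC (metal response element core), TGATGNAA (CHOP and ATF4 composite element), GTAAACA (FOXO site) and TGACGTCA (cAMP response element), the last added after the GABARAPL1 sequence had been seen. Capitals mark matches. The windows are on the plus strand at chr12:131894372-131894671 (ULK1), chr17:43170964-43171263 (NBR1), chr12:10212627-10212926 (GABARAPL1) and chr11:72814161-72814460 (ATG16L2), written 5′ to 3′.
ULK1: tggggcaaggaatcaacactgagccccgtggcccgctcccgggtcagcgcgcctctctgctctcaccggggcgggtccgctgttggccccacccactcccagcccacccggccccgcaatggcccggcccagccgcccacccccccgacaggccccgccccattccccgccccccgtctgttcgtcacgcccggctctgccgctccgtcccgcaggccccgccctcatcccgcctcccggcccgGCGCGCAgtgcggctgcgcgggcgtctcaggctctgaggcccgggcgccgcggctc
NBR1: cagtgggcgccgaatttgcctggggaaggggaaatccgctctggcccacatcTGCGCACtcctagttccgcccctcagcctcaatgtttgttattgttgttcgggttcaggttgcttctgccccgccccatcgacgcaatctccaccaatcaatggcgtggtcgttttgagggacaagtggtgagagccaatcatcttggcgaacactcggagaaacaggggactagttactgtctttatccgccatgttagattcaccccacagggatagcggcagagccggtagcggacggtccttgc
GABARAPL1: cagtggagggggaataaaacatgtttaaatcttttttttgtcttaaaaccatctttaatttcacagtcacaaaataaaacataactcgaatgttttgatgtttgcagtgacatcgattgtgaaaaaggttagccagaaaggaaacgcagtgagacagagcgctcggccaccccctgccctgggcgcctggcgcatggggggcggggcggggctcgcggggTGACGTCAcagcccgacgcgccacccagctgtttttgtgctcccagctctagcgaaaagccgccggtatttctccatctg
ATG16L2: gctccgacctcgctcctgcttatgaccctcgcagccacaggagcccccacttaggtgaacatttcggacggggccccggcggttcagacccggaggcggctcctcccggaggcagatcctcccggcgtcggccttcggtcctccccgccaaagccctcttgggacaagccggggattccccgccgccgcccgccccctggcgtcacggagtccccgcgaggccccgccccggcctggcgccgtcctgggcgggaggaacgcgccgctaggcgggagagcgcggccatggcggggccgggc

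The ULK1 and NBR1 windows held the G form of the metal response element core, at base 245 (minus strand) and base 53 of the window. This form was in 8 of the 46 member windows (17.4%, against 20.0% of all 35116 windows), and the A form in 3 (6.52%, against 12.1%). The GABARAPL1 window held a cAMP response element at base 221, the only match among the member windows (2.17%, against 1.85%). The ATG16L2 window held none of these letters. An E-box was in 2 member windows, of ATG3 and ATG14 (4.35%, against 7.26%), and an antioxidant response element in 5 (10.9%, against 13.3%). The composite element was in 1, of MAP1LC3C (2.17%, against 3.62%), and the FOXO site in 1, of CALCOCO2 (2.17%, against 3.42%). A match describes the letters and is not evidence of binding.

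In the initiation complex 2 of 5 members rose (40%, against 8.85% of all tested genes) and 3 did not pass. For 3 of the 5 unadjusted p was under 0.05, against 34% of all tested genes. ULK1 is the kinase that starts autophagosome formation (chromosome 12, 132379279 to 132407707 in hg19). It had 4664 and 2458 reads with cadmium and 2857 and 1084 reads in controls, and per length 26.1 and 26.4 RPKM with cadmium and 18.3 and 21.5 RPKM in controls. Both cadmium libraries lay above both controls, and the controls were further apart than the cadmium libraries. ULK1 averaged 154 ± 2.26 CPM with cadmium and 119 ± 13.4 CPM in controls (SD, n = 2 each). The log2 fold change was 0.37 (SE 0.10, edgeR adjusted p = 0.0368). It missed the threshold without control replicate 1 (0.26, adjusted p = 0.104) or either cadmium library (adjusted p from 0.130 to 0.145).

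RB1CC1, also called FIP200, is the scaffold of the complex. It had 2298 and 1326 reads with cadmium and 1592 and 470 reads in controls, or 75.1 and 83.9 CPM with cadmium and 61.2 and 55.8 CPM in controls. The groups did not overlap, with a log2 fold change of 0.44 (SE 0.10, edgeR adjusted p = 0.0264). RB1CC1 missed the threshold without either cadmium library (adjusted p from 0.0596 to 0.183) and with reads thinned to equal depth (0.35, adjusted p = 0.126).

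The other 3 members of the complex had negative fold changes that missed the threshold. ATG101 stabilises ATG13 and had the highest level of the group per length, 54.1 and 54.9 RPKM with cadmium and 63.7 and 64.1 RPKM in controls. Both cadmium libraries lay below both controls (log2 fold change -0.26, edgeR adjusted p = 0.0687). ATG13, the adaptor between kinase and scaffold, stood at 18.6 and 17.0 RPKM with cadmium and 19.2 and 19.0 RPKM in controls (-0.14, adjusted p = 0.289). ULK2, the paralog of ULK1, stood at 15.7 and 13.1 RPKM with cadmium and 14.2 and 18.5 RPKM in controls, with overlapping groups (-0.18, adjusted p = 0.349). The RPKM ratio of ULK1 over ULK2 within a library, which does not depend on the scaling between libraries, was 1.67 and 2.02 with cadmium and 1.29 and 1.16 in controls.

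Of the 6 members of the lipid kinase complex 0 passed the edgeR test, and their median log2 fold change was 0.23. An unadjusted p under 0.05 was found for 1, against 34% of all tested genes. The exception was PIK3R4, the regulatory subunit, at 7.87 and 8.80 RPKM with cadmium and 6.38 and 7.14 RPKM in controls (0.28, adjusted p = 0.134). The catalytic subunit PIK3C3 had 0.25, ATG14, which directs the complex to autophagy, 0.26, and UVRAG, the subunit in place of ATG14 in another form of the complex, 0.21, with adjusted p-values from 0.278 to 0.282. In these 4 genes both cadmium libraries lay above both controls, except in PIK3C3, where they overlapped. Of all tested genes, 31.3% had both cadmium libraries above both controls.

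BECN1, the core subunit, had the highest level of this group, 35.5 and 33.8 RPKM with cadmium and 37.0 and 35.4 RPKM in controls. Its log2 fold change was -0.093 (edgeR adjusted p = 0.497), and that of AMBRA1, which binds BECN1, was -0.10 (adjusted p = 0.494). In both, the cadmium libraries lay below the controls. The model of CNTD1 overlaps BECN1 on the other strand and had 40 and 24 reads with cadmium and 28 and 5 reads in controls, few beside the 2606 and 1293 reads with cadmium and 2366 and 733 reads in controls of BECN1.

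Of 6 tested genes for the membrane source and lipid transfer 0 passed the edgeR test. An unadjusted p under 0.05 was found for 2, against 34% of all tested genes. Both cadmium libraries lay above both controls for 4 (66.7%, against 31.3% of all tested genes). WIPI1, which binds the lipid made by the kinase complex, stood at 19.0 and 16.3 RPKM with cadmium and 13.8 and 11.7 RPKM in controls. Its log2 fold change of 0.43 (SE 0.13, edgeR adjusted p = 0.0565) was close to that of RB1CC1. WIPI1 passed without control replicate 1 (0.57, adjusted p = 0.0257), and with library size alone, no filter or a stricter filter (adjusted p from 0.0178 to 0.0471). Its paralog WIPI2, which recruits ATG16L1, stood at 27.5 and 26.3 RPKM with cadmium and 25.7 and 28.8 RPKM in controls (-0.045, adjusted p = 0.770), and its sign turned with library size alone and with level-dependent scaling. The RPKM ratio of WIPI1 over WIPI2 was 0.693 and 0.621 with cadmium and 0.537 and 0.405 in controls.

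VMP1, a lipid scramblase of the endoplasmic reticulum, stood at 44.4 and 44.6 RPKM with cadmium and 39.1 and 35.5 RPKM in controls (log2 fold change 0.22, edgeR adjusted p = 0.127). ATG9A, in the vesicles that seed the membrane, stood at 40.8 and 40.0 RPKM with cadmium and 37.1 and 38.1 RPKM in controls (0.075, adjusted p = 0.546). These were the most abundant genes of the group. The lipid transfer gene ATG2A had 0.20 (adjusted p = 0.232), or 0.35 without control replicate 2, where it passed (adjusted p = 0.0171), and its paralog ATG2B had 0.0042 (adjusted p = 0.986). The RPKM ratio of ATG2A over ATG2B was 7.97 and 6.77 with cadmium and 6.12 and 6.64 in controls. ATG9B had 0 reads in all 4 libraries. By counting error alone, 3 reads were taken as an approximate upper limit for a count of 0. They are 0.0980 and 0.190 CPM in the cadmium libraries and 0.115 and 0.356 CPM in the controls.

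Of the 7 genes of the conjugation system 1 rose (14.3%, against 8.85% of all tested genes) and 6 did not pass. For 2 of the 7 unadjusted p was under 0.05, against 34% of all tested genes. ATG16L2 (chromosome 11, 72525451 to 72540680 in hg19) is a paralog of ATG16L1, the subunit that places the conjugating complex on the membrane, and it had the largest fold change of the 38 tested members. It had 1148 and 472 reads with cadmium and 467 and 178 reads in controls, and per length 15.6 and 12.3 RPKM with cadmium and 7.29 and 8.58 RPKM in controls. The groups did not overlap, and the cadmium libraries were further apart than the controls. ATG16L2 averaged 33.7 ± 5.39 CPM with cadmium and 19.5 ± 2.27 CPM in controls (SD, n = 2 each). The log2 fold change was 0.81 (SE 0.15, edgeR adjusted p = 0.0133), or 0.63 without cadmium replicate 1, where it missed the threshold (adjusted p = 0.0908).

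ATG16L1 itself stood at 7.17 and 7.83 RPKM with cadmium and 7.90 and 9.14 RPKM in controls, with a log2 fold change of -0.19 (edgeR adjusted p = 0.305). The RPKM ratio of ATG16L2 over ATG16L1 was 2.18 and 1.57 with cadmium and 0.923 and 0.940 in controls, above 1 in both cadmium libraries and below 1 in both controls. ATG3, which attaches LC3 to lipid, had the highest level of the group, 35.4 and 33.9 RPKM with cadmium and 43.2 and 39.7 RPKM in controls. Its cadmium libraries lay below the controls (-0.28, adjusted p = 0.0806), and it passed without control replicate 2 (-0.35, adjusted p = 0.0262). ATG12, which is conjugated to ATG5, had -0.15 (adjusted p = 0.358), and ATG5 had 0.0017 (adjusted p = 0.994). ATG7, the activating enzyme, had 0.092 (adjusted p = 0.553), and VGLL4 on the other strand overlaps it with 1616 and 851 reads with cadmium and 1281 and 403 reads in controls. ATG10, which conjugates ATG12, had 112 and 46 reads with cadmium and 85 and 23 reads in controls, the fewest of the tested members (0.12, adjusted p = 0.795).

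Of the 4 ATG4 proteases, which trim LC3 precursors and release LC3 from membranes, 0 passed the edgeR test. An unadjusted p under 0.05 was found for 2, against 34% of all tested genes. ATG4D stood at 23.2 and 23.8 RPKM with cadmium and 28.8 and 28.1 RPKM in controls (log2 fold change -0.31, SE 0.094, edgeR adjusted p = 0.0545). ATG4B, the main protease for LC3, stood at 20.4 and 20.0 RPKM with cadmium and 23.0 and 25.9 RPKM in controls, with -0.30 (SE 0.10, adjusted p = 0.0717). In both genes the cadmium libraries lay below the controls, as in 30.8% of all tested genes. ATG4D passed with limma-voom, with no filter and without control replicate 2 (adjusted p of 0.0359 to 0.0459), and ATG4B with no filter and without control replicate 1 (adjusted p from 0.0362 to 0.0445). ATG4C had 0.33 (adjusted p = 0.271), with cadmium libraries above the controls, and ATG4A 0.00062 (adjusted p = 0.999). KRI1 overlaps ATG4D on the other strand with 2536 and 1243 reads with cadmium and 2661 and 1035 reads in controls, and its part in the ATG4D counts was not tested.

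**Figure D2:**
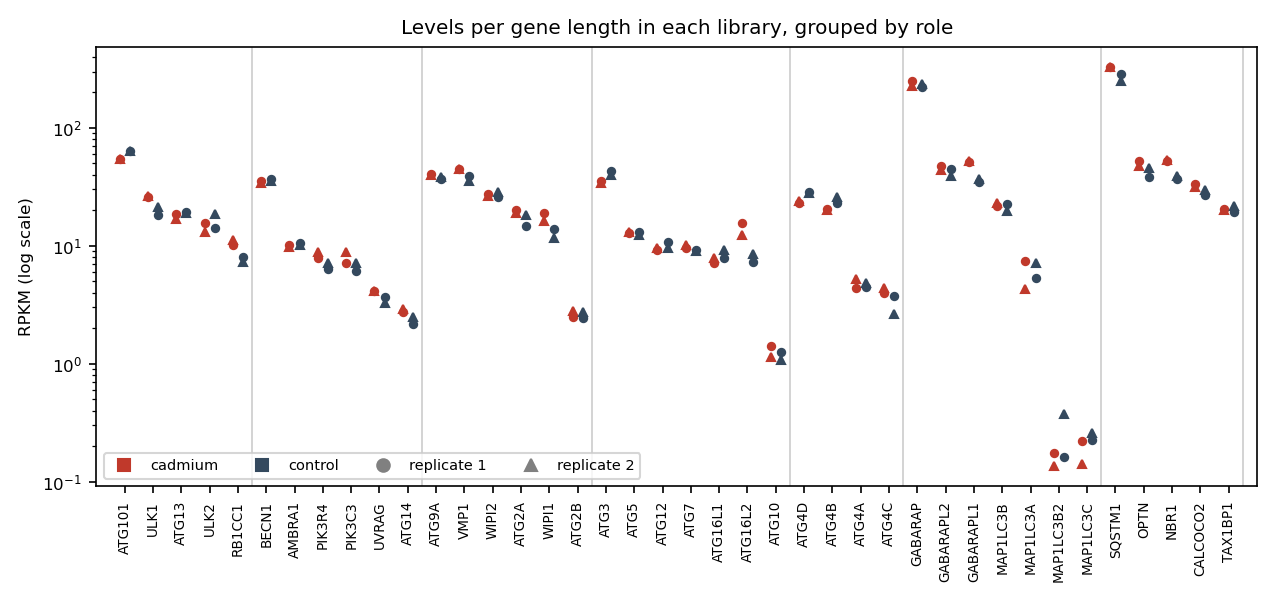
Level of the autophagy genes in each library, in RPKM on a log scale, by role, with cadmium left of control, circles for replicate 1 and triangles for replicate 2. ATG9B, with 0 reads, is not drawn. SQSTM1 and GABARAP lie above all other members in every library, SQSTM1 at 328 and 328 RPKM with cadmium and 285 and 251 in controls.

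The LC3 and GABARAP family holds the proteins attached to the growing membrane. Of its 5 tested members 1 rose (20%, against 8.85% of all tested genes) and 4 did not pass. For 1 of the 5 unadjusted p was under 0.05, against 34% of all tested genes. Both cadmium libraries lay above both controls for 1 (20%, against 31.3%). GABARAPL1 (chromosome 12, 10365489 to 10375724 in hg19) had 3280 and 1754 reads with cadmium and 1925 and 658 reads in controls, and per length 51.3 and 52.6 RPKM with cadmium and 34.5 and 36.5 RPKM in controls. Replicates lay close together and the groups did not overlap. GABARAPL1 averaged 109 ± 2.73 CPM with cadmium and 76.1 ± 2.98 CPM in controls (SD, n = 2 each). The log2 fold change was 0.52 (SE 0.088, edgeR adjusted p = 0.0101). It passed without each library in turn and under every other alternative fitted gene by gene except the threshold of 0.01, at a log2 fold change from 0.48 to 0.59. Its sequence is close to that of GABARAPL3, so a split of reads between them is uncertain.

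GABARAP was the most abundant of the family, at 251 and 228 RPKM with cadmium and 223 and 233 RPKM in controls, with overlapping groups (log2 fold change 0.041, edgeR adjusted p = 0.767). GABARAPL2 stood at 47.7 and 43.5 RPKM with cadmium and 45.0 and 38.9 RPKM in controls (0.082, adjusted p = 0.650). MAP1LC3B, the LC3 gene most used to follow autophagosomes, stood at 21.8 and 23.0 RPKM with cadmium and 22.4 and 19.7 RPKM in controls (0.051, adjusted p = 0.778). The groups of these genes overlapped, as did those of MAP1LC3A (-0.056, adjusted p = 0.916). MAP1LC3C had 9 and 3 reads with cadmium and 8 and 3 reads in controls, and MAP1LC3B2, a near-identical copy of MAP1LC3B, had 5 and 2 reads with cadmium and 4 and 3 reads in controls. Neither was tested, and the split of reads between MAP1LC3B and its copy is uncertain.

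Per length, GABARAPL1 made up 13.5% and 15.0% with cadmium and 10.4% and 10.8% in controls of the summed RPKM of the family. GABARAP made up 66.1% and 64.8% with cadmium and 67.4% and 69.4% in controls, and MAP1LC3B 5.73% and 6.55% with cadmium and 6.79% and 5.85% in controls. The GABARAP subfamily together held 92.2% and 92.2% with cadmium and 91.5% and 91.8% in controls. The RPKM ratio of GABARAPL1 over GABARAP was 0.204 and 0.231 with cadmium and 0.155 and 0.156 in controls, over GABARAPL2 1.08 and 1.21 with cadmium and 0.766 and 0.937 in controls, and over MAP1LC3B 2.36 and 2.28 with cadmium and 1.54 and 1.85 in controls. All ratios between related genes were formed after the changes had been seen, with the gene that rose, or of higher fold change, on top. They carry no test, since 2 against 2 libraries allow no exact two-sided permutation p below 0.333.

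**Figure D3:**
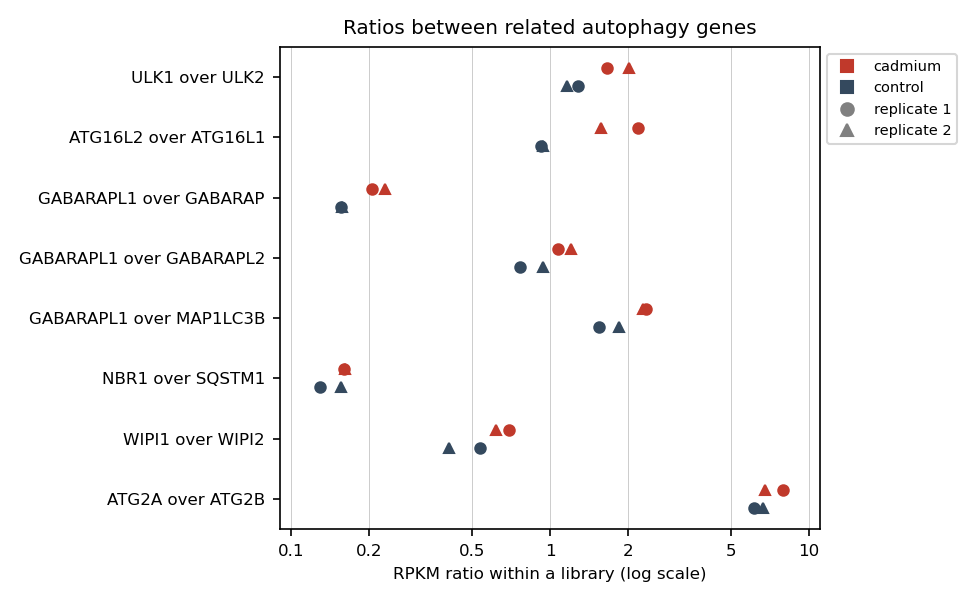
RPKM ratio of pairs of related autophagy genes within each library, on a log scale, with cadmium above control, circles for replicate 1 and triangles for replicate 2. The ratio of ULK1 over ULK2 was 1.67 and 2.02 with cadmium and 1.29 and 1.16 in controls, and the pairs were formed after the changes had been seen.

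Of the 5 cargo receptors, which bind tagged cargo and LC3 proteins, 1 rose and 4 did not pass. The 1 that rose is 20%, against 8.85% of all tested genes called higher. For 2 of the 5 unadjusted p was under 0.05, against 34% of all tested genes. Both cadmium libraries lay above both controls for 4 (80%, against 31.3% of all tested genes). NBR1 (chromosome 17, 41322987 to 41363708 in hg19) had 8515 and 4510 reads with cadmium and 5296 and 1822 reads in controls, and per length 52.2 and 53.0 RPKM with cadmium and 36.8 and 39.1 RPKM in controls. The groups lay further apart than the replicates. Over SQSTM1, the RPKM ratio of NBR1 was 0.159 and 0.162 with cadmium and 0.129 and 0.156 in controls. NBR1 averaged 282 ± 5.14 CPM with cadmium and 209.9 ± 9.18 CPM in controls (SD, n = 2 each). The log2 fold change was 0.43 (SE 0.079, edgeR adjusted p = 0.0127). It missed the threshold without either cadmium library (0.45 and 0.41, adjusted p from 0.0518 to 0.0614).

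SQSTM1, which encodes p62 and also binds KEAP1, had the highest level of all members, 328 and 328 RPKM with cadmium and 285 and 251 RPKM in controls. It took 26.3% and 26.8% with cadmium and 26.0% and 22.8% in controls of the reads of all members. SQSTM1 averaged 1068 ± 7.77 CPM with cadmium and 892 ± 80.2 CPM in controls (SD, n = 2 each). The log2 fold change was 0.26 (SE 0.084) and missed the threshold (edgeR adjusted p = 0.0687). It passed without control replicate 1 (0.35, adjusted p = 0.0173), and with level-dependent scaling, library size alone, no filter or a stricter filter (adjusted p from 0.0239 to 0.0493). The model of C5orf45 overlaps it on the other strand with 331 and 167 reads with cadmium and 285 and 78 reads in controls. In the authors' deposited table SQSTM1 has a log2 ratio of 0.24 (adjusted p = 0.0711) and NBR1 0.41 (adjusted p = 0.000701).

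OPTN, which serves in the removal of mitochondria and bacteria, stood at 51.8 and 47.0 RPKM with cadmium and 38.5 and 45.9 RPKM in controls (log2 fold change 0.20, edgeR adjusted p = 0.208), and passed without control replicate 2 (0.33, adjusted p = 0.0233). CALCOCO2, also called NDP52, stood at 33.2 and 31.6 RPKM with cadmium and 26.9 and 29.7 RPKM in controls (0.17, adjusted p = 0.221). TAX1BP1 had -0.036 (adjusted p = 0.826) with overlapping groups, and the sign turned with library size alone and with level-dependent scaling.

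**Figure D4:**
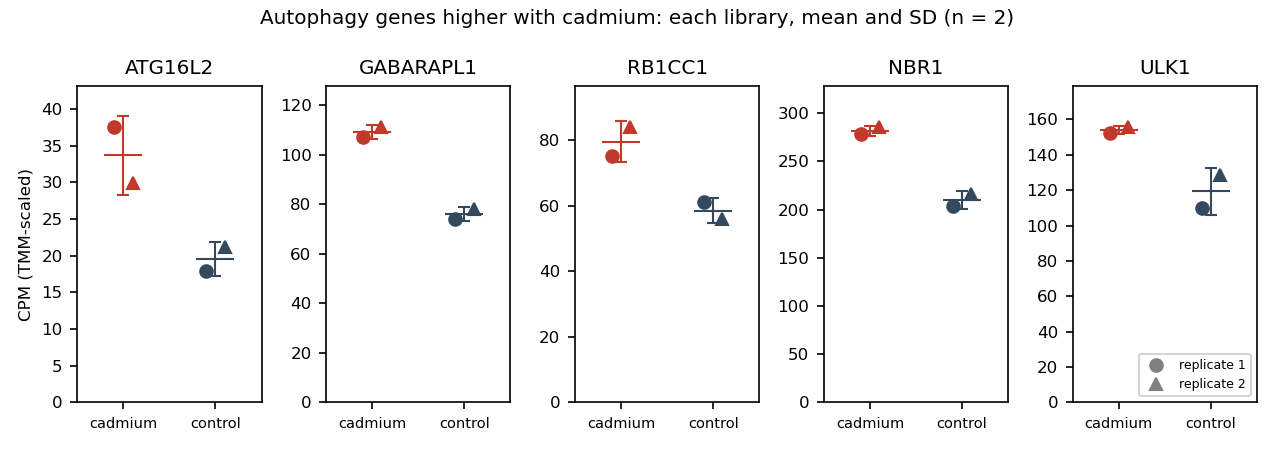
Level in CPM of the 5 autophagy genes with an adjusted p under 0.05 in each library, cadmium left of control, with bars for the mean and SD (n = 2). For each gene both cadmium libraries lie above both controls, as for GABARAPL1 with means of 109 CPM with cadmium and 76.1 CPM in controls.

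The 38 tested members together summed to 4039 and 4006 CPM with cadmium and 3643 and 3659 CPM in controls. Within these sums SQSTM1, which did not pass, averaged 1068 CPM with cadmium and 892 CPM in controls. The mean level of the tested members lay between 1.22 RPKM (ATG10) and 298 RPKM (SQSTM1), with a median of 18.2 RPKM. Another gene model overlaps 9 of the members, 6 of them on the other strand, and none of the 5 genes that rose.

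Around the machinery, 96 tested genes of 4 other autophagy lists gave 9 higher (9.38%), 8 lower (8.33%) and 79 that did not pass by edgeR, with a median log2 fold change of 0.021. Both shares are near those of all tested genes. Leaving out 1 library gave 3 to 15 higher and 1 to 12 lower.

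Of 33 upstream kinases, mTORC1 components and transcription factors 4 rose (12.1%) and 2 fell (6.06%), against 8.85% and 7.66% of all tested genes. RRAGD, a GTPase that helps bring mTORC1 to the lysosome, had 404 and 177 reads with cadmium and 127 and 21 reads in controls and averaged 12.2 ± 1.41 CPM with cadmium and 3.69 ± 1.69 CPM in controls (SD, n = 2 each). Its log2 fold change was 1.62 (SE 0.27, edgeR adjusted p = 0.0102), and it missed only the threshold of 0.01. FLCN, which acts on the Rag GTPases, rose by 0.36, and PRKAA2 and PRKAB2, subunits of the energy sensor AMPK, by 0.53 and 0.47 (log2 scale, adjusted p from 0.0355 to 0.0447). MLST8, a subunit of mTORC1, fell by 0.56 (log2 scale, adjusted p = 0.0107), and AKT1S1, an inhibitor within mTORC1, by 0.36 (adjusted p = 0.0337). Of these 6 genes RRAGD alone passed without cadmium replicate 2, and RRAGD and MLST8 without cadmium replicate 1. PRKAA2 and AKT1S1 missed the threshold without control replicate 1 (adjusted p between 0.0849 and 0.0944), as did PRKAB2 without control replicate 2 (adjusted p = 0.0518). With all 4 libraries kept, FLCN missed it with the replicate block (adjusted p = 0.0598). PRKAA2 and PRKAB2 missed it with the block, the DESeq2 test, thinning and level-dependent scaling (adjusted p of 0.0517 to 0.0759), and PRKAB2 also with limma-voom (adjusted p = 0.0508). AKT1S1 missed it with thinning, level-dependent scaling and library size alone (adjusted p of 0.0591 to 0.0899).

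Of 18 other nucleation and phagophore genes 1 rose (5.56%) and 3 fell (16.7%), against 8.85% and 7.66% of all tested genes. TP53INP2, which binds LC3 proteins, rose by 0.60 (log2 scale, SE 0.14, edgeR adjusted p = 0.0265). DRAM1, a lysosomal membrane protein that p53 induces, fell by 0.50 (adjusted p = 0.0117), BCL2L1, whose product binds BECN1 and blocks apoptosis, by 0.45 (adjusted p = 0.0123), and WDR45B, a relative of the WIPI genes, by 0.36 (adjusted p = 0.0434). All 4 missed the threshold without cadmium replicate 2 (adjusted p of 0.0575 to 0.174), as did all but DRAM1 without cadmium replicate 1 (adjusted p of 0.0581 to 0.147). TP53INP2 also missed it without control replicate 1 (adjusted p = 0.0798) and WDR45B without control replicate 2 (adjusted p = 0.0722). With all 4 libraries kept, thinning ended the call of TP53INP2 (adjusted p = 0.0974), and thinning, level-dependent scaling, library size alone and the stricter filter that of WDR45B (adjusted p of 0.0617 to 0.117).

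Of 22 maturation and fusion genes 2 rose (9.09%) and 1 fell (4.55%), against 8.85% and 7.66% of all tested genes. GRAMD1A, a sterol transfer protein, rose by 0.51 (log2 scale, edgeR adjusted p = 0.0214), and ATP6V0A1, a subunit of the lysosomal proton pump, by 0.36 (adjusted p = 0.0463). EVA1A fell by 0.64 (adjusted p = 0.0205). All 3 missed the threshold without cadmium replicate 1 (adjusted p from 0.125 to 0.144). ATP6V0A1 also missed it without cadmium replicate 2 or control replicate 2 (from 0.0764 to 0.266), and EVA1A without control replicate 1 (adjusted p = 0.0582). With all 4 libraries kept, EVA1A missed it with thinning (-0.73, adjusted p = 0.0958), and ATP6V0A1 with thinning, the DESeq2 test and the replicate block (adjusted p of 0.0607 to 0.0750).

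Of 23 other selective receptors and adaptors 2 rose (8.70%) and 2 fell (8.70%), against 8.85% and 7.66% of all tested genes. BNIP3, a receptor on mitochondria that hypoxia induces, had 4600 and 2124 reads with cadmium and 1517 and 626 reads in controls and averaged 142 ± 11.2 CPM with cadmium and 66.3 ± 11.4 CPM in controls (SD, n = 2 each). Its log2 fold change was 1.12 (SE 0.13, edgeR adjusted p = 0.00349), and it passed under every alternative fitted gene by gene. Its relative BNIP3L had 4166 and 1929 reads with cadmium and 1935 and 819 reads in controls and rose by 0.60 (adjusted p = 0.0216), but missed the threshold without cadmium replicate 1 (adjusted p = 0.0899). KEAP1, the adaptor that SQSTM1 binds, fell by 0.46 (adjusted p = 0.0113) and TOLLIP, which binds ubiquitin and LC3, by 0.41 (adjusted p = 0.0184). Both missed it without cadmium replicate 1 (adjusted p of 0.0702 to 0.141) or cadmium replicate 2 (0.0519 to 0.0980).

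**Figure D5:**
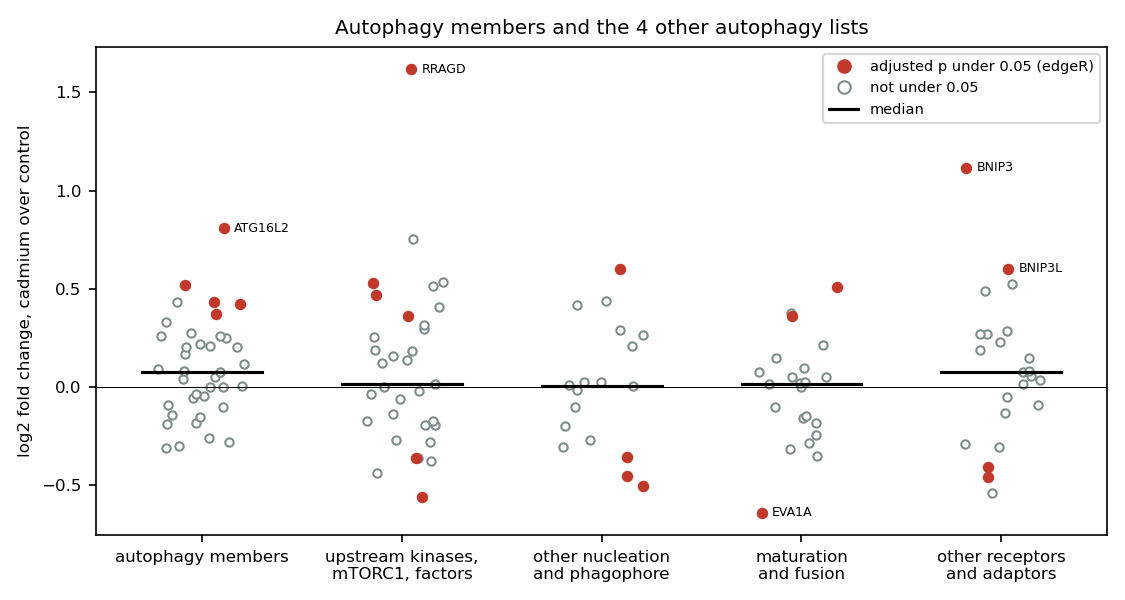
Log2 fold change, cadmium over control, of the tested autophagy members and of the tested genes of 4 other autophagy lists, with filled points for an adjusted p under 0.05 and a line at each median. RRAGD at 1.62 and BNIP3 at 1.12 lie above every member, the highest of which is ATG16L2 at 0.81.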

How the data were processed

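RNA of BEAS-2B cells was sequenced in 2 cadmium and 2 control libraries. The authors deposited, per the file headers, counts (whole numbers) and RPKM for each RefSeq gene and library, with gene coordinates. Their deposited table of the comparison holds mean RPKM, log2 ratios made by the authors, and p-values raw and adjusted. The base of those ratios was taken as 2, because regressing the log2 ratio of the deposited means on them gave a slope of 1.11 (1781 genes above 50 RPKM in control). The submitters' processing notes name STAR 2.4, DESeq2, DESeq, GRCh37 and hg19. Counter, annotation release and strand setting: not given in the sources used here.

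Genes were joined by RefSeq identifier. The counts were fitted in R 4.3.3 with edgeR 4.0.16 (filterByExpr, TMM, robust quasi-likelihood test, group alone), adjusted by Benjamini-Hochberg over 13663 genes, and every adjusted p is edgeR's unless another source is named. The SE was derived from the F statistic. The script was tested on simulated counts with changes larger than those of the members that rose. That test does not show how well changes of their size are found. Alternatives were DESeq2 1.42.0 (test and size factors), limma-voom (limma 3.58.1), library size alone, level-dependent scaling, no filter, a stricter filter (5 CPM in 2 libraries), thinning to 8609243 reads, a replicate block, a threshold of 0.01 and leaving out each library. Between the libraries of a group, chi-square per gene was 7.35 with cadmium and 11.3 in controls, above sampling noise.

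Members and lists were chosen with earlier results of these data known. By rule the text names every member, and of each other list up to 4 genes past the threshold with the largest change at a mean of at least 5 CPM. FLCN and AKT1S1 were added after their values were seen. RefSeq promoter windows were used for sequence only.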

Additional observations from a re-analysis of the deposited data

How the results depend on the processing

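GABARAPL1, ATG16L2, NBR1 and ULK1 passed under every alternative fitted gene by gene that kept all 4 libraries and the threshold of 0.05, and RB1CC1 under all of these but thinning. Leaving out 1 library gave 1 to 7 higher and 0 to 2 lower members (median 0.074 to 0.10), 369 to 1977 higher and 235 to 1791 lower genes in all, and 3 to 15 higher and 1 to 12 lower genes of the other autophagy lists. A threshold of 0.01 gave 0 higher members, 233 higher and 149 lower genes in all, and 1 higher and 0 lower genes of the other lists. Thinning to equal depth gave 802 higher and 679 lower genes in all and 6 higher genes of the other lists. Library size alone gave 682 lower genes in all, a member median of 0.14 beside 0.060 over all genes, and 16 higher genes of the other lists. Level-dependent scaling gave a member median of 0.12. DESeq2 gave 5 higher and 0 lower members, and limma-voom 1 lower member. No filter gave 2 lower members, and 14 higher and 15 lower genes of the other lists, and the stricter filter 14 higher ones. The causes of these differences were not tested.

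Groups share replicate numbers, but the labels do not say that these pair the libraries, and same-numbered libraries did not deviate together (r = -0.14 over 13663 genes). A replicate block gave 5 higher members and 5 higher genes of the other lists. With the numbers crossed, a pairing chosen after seeing the data, the block gave 7 higher and 2 lower members, 14 higher and 14 lower genes of the other lists, and 1551 higher and 1471 lower genes in all, and was used for counts only.

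Some members that did not pass changed sign. With limma-voom ATG5 had -0.015, ATG4A -0.012 and MAP1LC3A 0.027. With level-dependent scaling ATG10 had -0.11, ATG4A -0.082, TAX1BP1 0.027 and WIPI2 0.044. With library size alone MAP1LC3A had 0.0029, TAX1BP1 0.022 and WIPI2 0.014. Thinning gave MAP1LC3A 0.042 and AMBRA1 0.011, no filter gave ATG4A -0.00050, the stricter filter gave TAX1BP1 0.0021, and the replicate block gave ATG4A -0.0080 and ATG2B -0.00091. Without 1 library the ranges were -0.061 to 0.28 for ATG10, -0.10 to 0.091 for ATG2B, -0.11 to 0.12 for ATG4A, -0.074 to 0.085 for ATG5, -0.018 to 0.10 for GABARAP, -0.017 to 0.20 for GABARAPL2, -0.54 to 0.25 for MAP1LC3A, -0.042 to 0.15 for MAP1LC3B, -0.12 to 0.030 for TAX1BP1 and -0.13 to 0.030 for WIPI2. ATG10 was not tested under the stricter filter. With 2 libraries a group, a member that did not pass is not shown to be unchanged.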
